A study of Raphidocelis subcapitata with 45 samples.

Results

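In the green alga Raphidocelis subcapitata, 46 of 7291 measured genes stood above the solvent control at 1960 µg/L of sertraline and were back at or below it at 12249 µg/L, without having moved at 784 µg/L. They were chosen by their group means on the deposited log2 scale. A gene was taken when its 784 µg/L mean lay within 0.4 of the control mean, its 1960 µg/L mean at least 0.7 above it, and its 12249 µg/L mean not above it. The control, 784, 1960 and 12249 µg/L libraries therefore fixed the shape of these genes, and their values in those groups are a description from which no result is drawn, calls against the control included. The 50, 125, 314, 4900 and 30623 µg/L libraries took no part in the choice, and the results on the 46 genes rest on tests that compare these groups with each other.

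R. subcapitata is a unicellular freshwater alga that is a standard organism in toxicity tests, and sertraline is an antidepressant that blocks serotonin uptake. Cells from a culture in exponential growth, with Carolina Biological given as the genotype, were kept under constant light for 24 h with sertraline or with solvent only, per the labels. The solvent control and the 50, 125, 314, 784, 1960 and 4900 µg/L groups each had 5 libraries (A to E), the 12249 µg/L group had 3 (A, B and C) and the 30623 µg/L group had 3 (A, C and D). All groups share the solvent, whose content the labels and the design text state differently. Homogenates were pooled before extraction and no separate cultures are named, so p-values reflect library-to-library spread only, and that spread may be technical. In bulk RNA, fewer cells with a transcript and less of it per cell cannot be told apart. Concentrations are nominal, and measured exposures were not used here.

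A transcript whose level rises at a middle concentration and returns at a higher one has a non-monotone course. A fitted curve that can only rise or only fall can miss such genes. In algae, transcripts can be raised by defence and repair programmes at concentrations that leave cells viable, and many transcripts change together once cells are damaged. The deposited table lists identifiers that it does not pair with gene or product names, so these genes could not be sorted by function, nor could the label of the alga be checked against marker genes. The identifiers printed are limited to 4.

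At 1960 µg/L the 46 genes lay between 0.71 and 2.34 above the control mean on the log2 scale, with a median of 0.84. At 12249 µg/L they differed from it by -0.02 to -1.71, with a median of -0.45. The drop from the 1960 to the 12249 µg/L mean ran from -0.83 to -2.43, with a median of -1.34. All 5 libraries at 1960 µg/L lay above all 5 control libraries for 33 of the 46 genes, and above all 3 libraries at 12249 µg/L for 41. The rule fixed these differences and the share over all genes was not computed, so nothing is read from them. With limma and Benjamini-Hochberg adjusted p-values, 45 of the 46 were called higher at 1960 µg/L, where 9.82% of all genes were, and 13 were called lower at 12249 µg/L, where 26.1% of all genes were. Both contrasts entered the choice, so nothing is read from these counts. The genes were mostly weakly expressed: 33 of the 46 (71.7%) had a control mean below the median of all genes, 4.58. Their control means ran from 2.90 to 10.1, with a median of 3.92.

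The thresholds passed through a dense range of genes. Just inside, 17 of the 46 genes had a 1960 µg/L difference from 0.7 to under 0.8. Just outside, 28 genes met the other conditions with a difference from 0.6 to under 0.7. The nearest values on each side were 0.706 and 0.6997. At 12249 µg/L, 4 genes lay within 0.1 below the control and 12 that met the other conditions lay within 0.1 above it. Of the 46, 15 genes lay off the control at 784 µg/L by 0.3 to under 0.4 in size, and 5 genes left out on this condition alone lay off it by 0.4 to under 0.5. Membership was also sensitive to single libraries. Leaving out 1 library of the groups in the rule gave between 42 and 63 genes, of which 35 to 44 were among the 46.

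**Figure D1:**
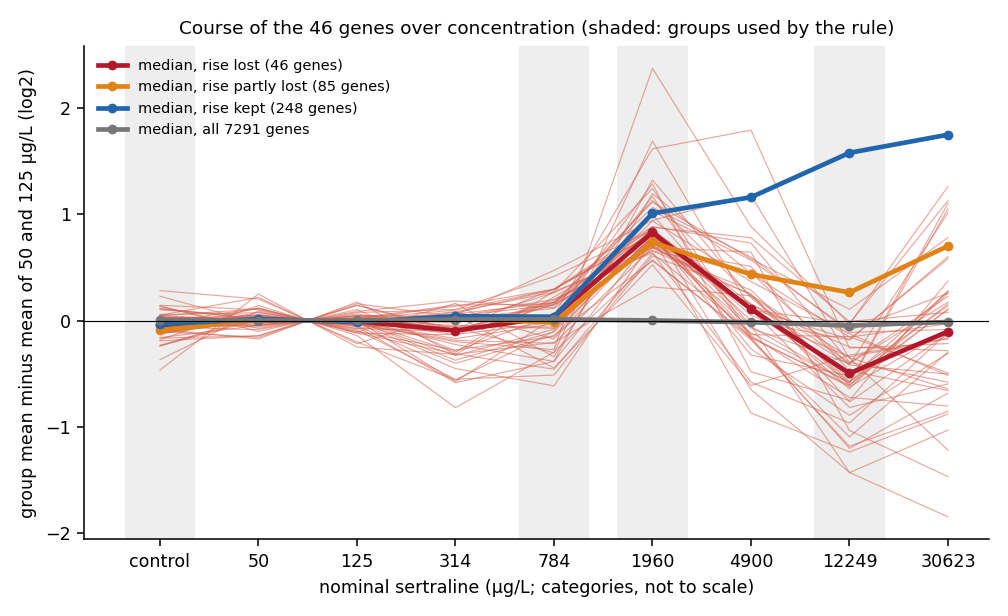
Group means of the 46 genes (thin red lines) and medians of gene sets (thick lines) at each nominal concentration, as the log2 difference from the mean of the 50 and 125 µg/L groups. Shaded groups were used to choose the genes. The median of the 46 genes is 0.83 at 1960, 0.11 at 4900, -0.50 at 12249 and -0.10 at 30623 µg/L.

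Because the control mean entered the choice, the average of the 50 and 125 µg/L means is used as the reference from here on, and called the low reference. No gene of the 7291 differed from the control at 50 or 125 µg/L in limma's test after adjustment. At an unadjusted p under 0.05, the 50 µg/L group had 52 genes higher and 39 lower, and the 125 µg/L group 114 higher and 127 lower. Against the low reference the 46 genes still stood between 0.32 and 2.37 higher at 1960 µg/L, with a median of 0.83, and 33 of them by 0.7 or more. All 5 libraries at 1960 µg/L lay above all 10 low libraries for 25 of the 46. The 1960 µg/L libraries entered the choice and the share over all genes was not computed, so nothing is read from this count. The median over the 46 genes, taken library by library, was 0.87 ± 0.06 (SD, n = 5) at 1960 µg/L, with the libraries between 0.80 and 0.96. In control libraries it was -0.02 ± 0.06 (SD, n = 5), in those at 784 µg/L 0.02 ± 0.03 (SD, n = 5), and -0.58 ± 0.04 (SD, n = 3) in those at 12249 µg/L. Within these groups the libraries lay close together, with all 1960 µg/L libraries above and all 12249 µg/L libraries below every library of the other groups.

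At 314 µg/L the 46 genes were near the low reference. Their median difference was -0.09, against 0.01 over all genes, and single genes ran from -0.82 to 0.18. Library by library the median was -0.08 in A, -0.13 in B, -0.07 in C, -0.22 in D and -0.06 in E. All 5 libraries were thus below the low reference, while the 10 libraries at 50 and 125 µg/L ranged from -0.05 to 0.10. Those 10 define the reference. The 5 control libraries ranged from -0.09 to 0.07, and only 314 µg/L libraries B and D lay below all of them. In limma's test, 1 of the 46 genes fell (0.384% of all genes fell) and 0 rose (0.0137% of all genes rose). At an unadjusted p under 0.05 the numbers were 7 lower and 0 higher of the 46, and 214 lower and 92 higher of all 7291 genes. That call was lost when 314 µg/L replicate A or B or 125 µg/L replicate A was left out, and when the spread came from the 5 unused groups alone. With library weights 3 of the 46 fell.

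At the next concentration, 4900 µg/L, the step between the raised and the lost state, calls for the 46 genes went both ways. Against the low reference, 10 rose and 4 fell in limma's test with Benjamini-Hochberg adjustment, and 32 were not called. These are 21.7% and 8.70% of the 46, while 18.2% of all genes rose and 22% fell, so the share that rose was near that of all genes. The 10 that rose did so by 0.51 to 1.79 on the log2 scale, with a median of 0.69, and the 4 that fell differed by -0.58 to -0.87. The median over all 46 was 0.11, against -0.02 over all genes. Of the 46, 11 still stood at 50% or more of their 1960 µg/L difference from the low reference, 17 between 0 and 50%, and 18 below the low reference. The 1960 µg/L means entered the choice and the shares over all genes were not computed, so nothing is read from these counts. None of the 46 had all 5 libraries above all 10 low libraries, which 6.72% of all genes had, and 1 had all 5 below, which 9.23% of all genes had. The calls use a spread shared by all groups, which can understate that at 4900 µg/L. Single libraries decided part of these calls. Without replicate A, 7 rose and 7 fell, and the median turned to -0.02. Without replicate B, 6 rose and 4 fell, and without replicate E, 12 rose and 2 fell.

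**Figure D2:**
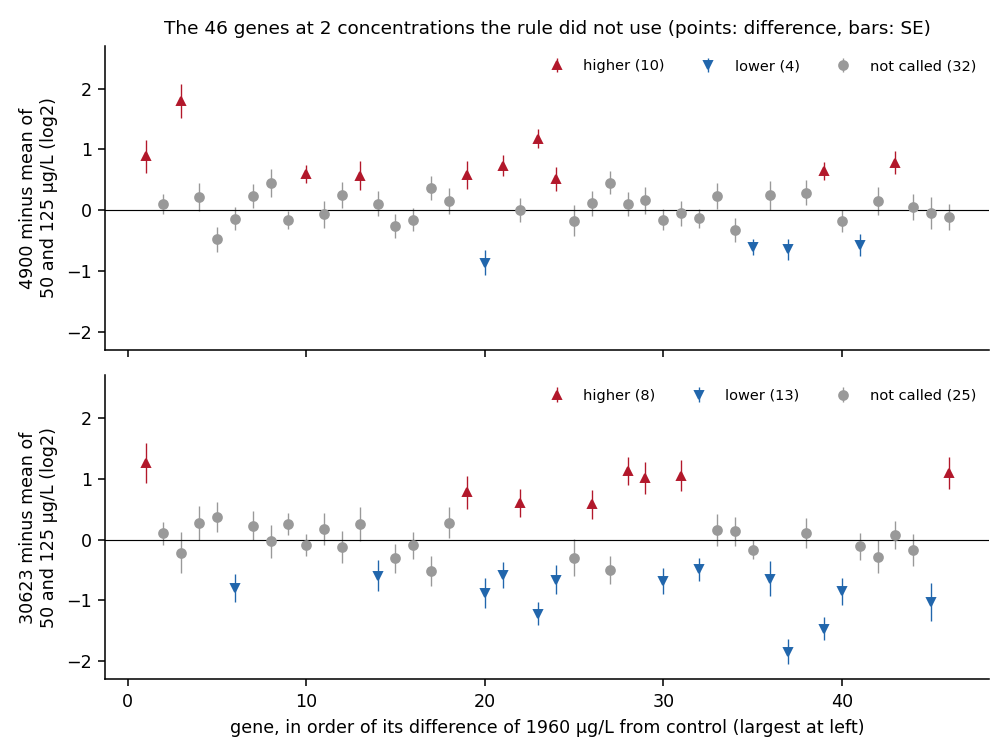
Log2 difference from the mean of the 50 and 125 µg/L groups for each of the 46 genes at 4900 (top) and 30623 µg/L (bottom). Genes are in order of the 1960 µg/L difference. Bars are the SE of limma's fit, whose spread is shared by all groups. Triangles mark the genes called by limma after adjustment, 10 up and 4 down in the top panel, 8 up and 13 down in the bottom one.

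The 4900 µg/L libraries differed from each other over these genes more than the libraries of any other group. The median of the 46 genes against the low reference was 0.63 in A, 0.33 in B, -0.02 in C, -0.05 in D and -0.36 in E, with an SD of 0.38. Library A was near the 1960 µg/L libraries (0.80 to 0.96) and E was nearer to those at 12249 µg/L (-0.60 to -0.53), but none lay within either range. In A, 21 of the 46 genes stood 0.7 or more above the low reference and 1 stood 0.7 or more below it. In E these numbers were 2 and 9. Over all genes the shares moved little, with 12.2% in A and 14.7% in E at 0.7 or more above, and 14.2% and 17.7% at 0.7 or more below.

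The same order was seen gene by gene. Library A held the highest of the 5 values for 29 of the 46 genes (63.0%), against 25.2% of all genes. Library E held the lowest value for 27 (58.7%), against 18.6% of all genes. The kept genes, a set defined further below, went the other way. Of these, A held the lowest value for 51.6% and E the highest for 51.2%. The rule placed the 46 genes low at 12249 µg/L, while all genes together went both ways. These shares are thus a description, and no result is drawn from them. A gene's 5 values at 4900 µg/L spanned 1 or more on the log2 scale for 32 of the 46 genes (69.6%). The share was 39.7% of all genes and 62.9% of the kept genes. The median span was 1.37 in the 46, against 0.88 over all genes. The rule set the 46 genes high at 1960 and low at 12249 µg/L, and libraries between those levels can differ more over such genes. The wider spans at 4900 µg/L are thus a description too, and no result is drawn from them. Spans of 1 or more were also more frequent among the 46 than over all genes from the control to 784 µg/L. The shares were 28.3% against 12.4% in the control, 19.6% against 9.44% at 50 and 23.9% against 10.1% at 125 µg/L. They were 10.9% against 7.82% at 314 and 23.9% against 13.9% at 784 µg/L. At 1960 µg/L the 46 had fewer, 23.9% against 32.4%. The median SD of the 46 genes was 0.52 at 4900, 0.38 at 12249 and 0.46 at 30623 µg/L. At every concentration below 4900 µg/L it lay between 0.25 and 0.32, solvent control included. At 4900 µg/L the median SD was 0.36 over all genes, 0.47 over the kept genes and 0.37 over the partly lost ones. In limma's fit each gene has the same spread for all groups. The SEs and p-values at 4900 and 30623 µg/L can therefore understate the spread between libraries there.

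The libraries also differed over the other 7245 genes. Each library was placed on a line with the mean at 1960 µg/L as 0 and that at 12249 µg/L as 1, computed without the 46 genes. The 4900 µg/L libraries stood at 0.18 (A), 0.29 (B), 0.52 (C), 0.57 (D) and 0.71 (E). Their order from A to E on this line was the order in which the median of the 46 genes went down. Since the rule fixed that the 46 genes were higher at 1960 than at 12249 µg/L, a library nearer to 12249 µg/L is one in which they can stand lower, and no more is read from this order. Whether exposure, timing or handling differed between these libraries was not tested.

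**Figure D3:**
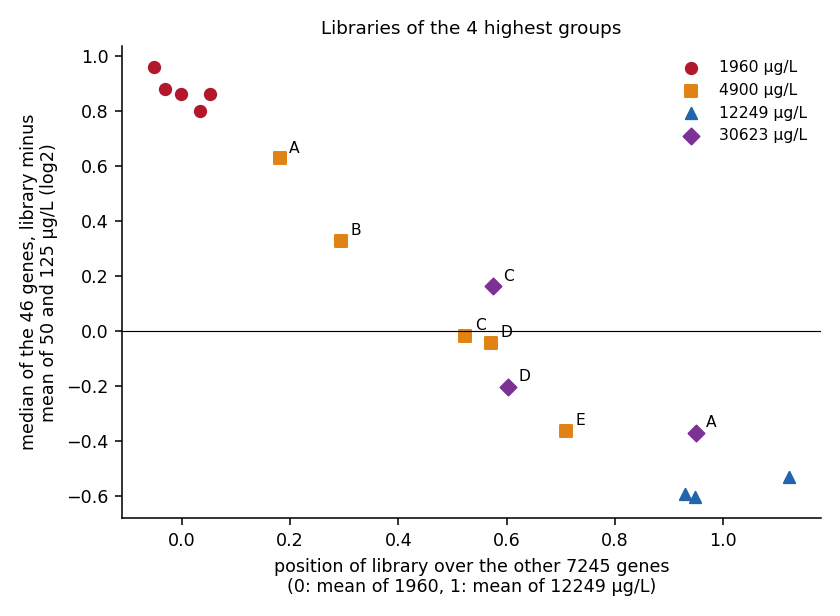
Median of the 46 genes in each library (log2 difference from the mean of the 50 and 125 µg/L groups) against the library's position over the other 7245 genes, where 0 is the 1960 µg/L mean and 1 the 12249 µg/L mean. Points are libraries of the 4 highest groups, with letters at 4900 and 30623 µg/L. The 4900 µg/L libraries run from 0.63 at position 0.18 (A) to -0.36 at position 0.71 (E).

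At the highest concentration, 30623 µg/L, calls for the 46 genes again went both ways. Against the low reference 8 rose and 13 fell in limma's test with Benjamini-Hochberg adjustment, and 25 were not called. These are 17.4% and 28.3% of the 46, while 27.4% of all genes rose and 29.5% fell. The share that fell was thus near that of all genes and the share that rose was lower. The rule left out genes that stood above the control at the next lower concentration, so both shares can follow from the choice. No result is drawn from how they compare with those of all genes. Calls in both directions were not particular to the 46. The 8 that rose did so by 0.58 to 1.26, with a median of 1.03, and the 13 that fell differed by -0.49 to -1.85, with a median of -0.80. All 8 that rose had a control mean below the median of all genes, and 4 of the 13 that fell did. Of all genes that rose there 70.2% had such a low control mean, and of all that fell 14.8%, a tilt in the same direction. All 3 libraries lay above all 10 low libraries for 3 of the 46 (17.1% of all genes) and below them for 8 (20% of all genes). The median over the 46 genes was -0.10, against -0.01 over all genes. By library it was -0.37 in A, 0.16 in C and -0.20 in D. Without replicate C, 5 rose and 11 fell, and without replicate A, 10 rose and 10 fell and the median turned to 0.03. With library weights 7 fell, and 2 rose among the 25 whose mean value reached 4.

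Compared directly with 4900 µg/L, 7 of the 46 genes were higher at 30623 µg/L and 15 lower in limma's test after adjustment. Of all genes, 21.9% were higher and 21.2% lower. The 15 that were lower differed by -0.66 to -2.39, with a median of -0.95, and the 7 that were higher rose by 0.44 to 1.22. The median over the 46 was -0.15, against 0.04 over all genes. It was 0.03 with library weights, 0.001 without 4900 µg/L replicate A, -0.04 without 30623 µg/L replicate A, -0.26 without 30623 µg/L replicate C and -0.27 with quantile scaling, so its sign was not stable. Without 30623 µg/L replicate A, 9 were higher and 9 lower, and without 30623 µg/L replicate C, 4 were higher and 14 lower. Without 4900 µg/L replicate A, 8 were higher and 10 lower. With library weights 7 were lower, and 3 were higher among the 25 whose mean value reached 4.

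A part of the genes stood higher at 30623 than at 12249 µg/L. The 30623 µg/L mean was above the 12249 µg/L mean for 35 of the 46, with a median difference of 0.52 against 0.01 over all genes, and by 0.7 or more for 15, where 13.7% of all genes were. The 12249 µg/L libraries entered the choice as the point where these genes had to be low, so this difference was not tested. On the line from 1960 to 12249 µg/L over the other genes, 30623 µg/L libraries C and D stood at 0.57 and 0.60 and A at 0.95. Libraries C and D also had the highest median values of all libraries, 4.73 and 4.70, where A had 4.61. Their part in the higher levels of the 46 genes was not tested.

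Over all 9 groups, the highest mean was at 1960 µg/L for 40 of the 46 genes, at 30623 µg/L for 4 and at 4900 µg/L for 2. The lowest mean was at 12249 µg/L for 25, at 30623 µg/L for 11, at 314 µg/L for 4, at 784 µg/L for 4, and at 50 and 4900 µg/L for 1 each. Of all 7291 genes, 892 were highest at 1960 µg/L, 1792 at 30623 and 534 at 4900 µg/L, while 1430 were lowest at 12249 and 1869 at 30623 µg/L. The rule set the 46 high at 1960 and low at 12249 µg/L, so nothing is read from these counts. Among the 5 groups the rule did not use, 25 of the 46 genes (54.3%) differed in limma's moderated F test after adjustment, against 61.8% of all genes.

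The genes that met the same conditions up to 1960 µg/L but stayed above the control at 12249 µg/L are set beside the 46 here at 4900 and 30623 µg/L, and the difference between the sets was not tested. Of the 379 genes near the control at 784 µg/L and raised at 1960 µg/L, 248 were at 0.7 or more above it at 12249 µg/L (rise kept) and 85 between 0 and 0.7 above it (rise partly lost). At 4900 µg/L, 217 of the 248 rose and 2 fell against the low reference in limma's test, and 36 of the 85 rose and 0 fell. At an unadjusted p under 0.05, 0 of the 85 were lower. At 30623 µg/L, 228 of the 248 and 49 of the 85 rose, and 2 and 3 fell. The median differences at 4900 µg/L were 1.16 (kept), 0.43 (partly lost) and 0.11 (the 46 genes). At 30623 µg/L they were 1.75, 0.70 and -0.10. The sets were cut by their 12249 µg/L values, so an order between them at the neighbouring concentrations is a description. At 1960 µg/L their medians, 1.01, 0.73 and 0.83, gave no such order. In the 4900 µg/L libraries the kept genes ran the other way from the 46, with medians of 0.83 in A, 1.08 in B, 1.12 in C, 1.29 in D and 1.46 in E.

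**Figure D4:**
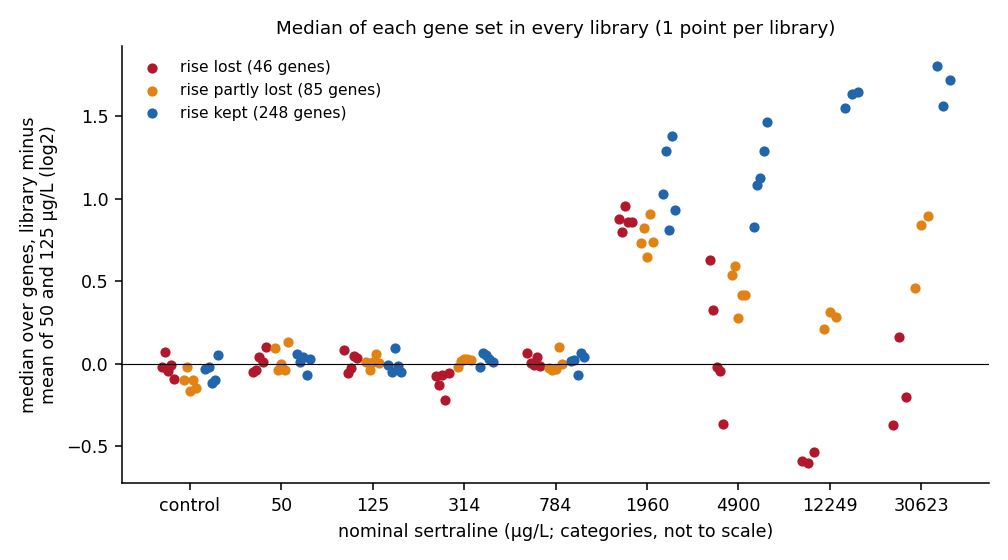
Median over the genes of each set in every library, as the log2 difference from the mean of the 50 and 125 µg/L groups, for the 46 genes (rise lost), 85 genes (partly lost) and 248 genes (kept). From the control to 784 µg/L all points lie near 0. At 4900 µg/L the libraries of the 46 genes spread from 0.63 to -0.36.

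The 2 genes with the largest difference at 1960 µg/L had unlike levels in the control. Rsub_11220 had the lowest control mean of the 46, 2.90 ± 0.57 (SD, n = 5), and its mean at 784 µg/L was 2.60 ± 0.25 (SD, n = 5). In the 1960 µg/L libraries it read 5.01, 5.10, 5.62, 5.38 and 5.09 (A to E), 5.17-fold above the low reference. All 5 lay above every control, 50, 125, 314 and 784 µg/L library, of which the highest was 3.61. At 4900 µg/L it read 4.78, 4.63, 3.04, 3.88 and 2.45 (A to E). Libraries A and B lay near those at 1960 µg/L and E was below the low reference. It rose there by 0.88 ± 0.27 (SE) (limma adjusted p = 0.00762). The SD of its 4900 µg/L libraries was 1.00, against 0.57 in the control, so this SE understates their spread. Without 4900 µg/L replicate A the rise was 0.63 (limma adjusted p = 0.0706), without B 0.66 (limma adjusted p = 0.0607), and with libraries weighted 0.64 (limma adjusted p = 0.0585).

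The 12249 µg/L libraries of Rsub_11220 read 2.69, 2.90 and 2.94 (A, B and C). At 30623 µg/L it read 2.96 in A, 4.68 in C and 4.75 in D. Libraries C and D were again near the 1960 µg/L level and A was not. It rose against the low reference by 1.26 ± 0.33 (SE), 2.39-fold (limma adjusted p = 0.000935). The SD of its 30623 µg/L libraries was 1.01, a spread that this SE also understates.

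Rsub_09325 was well expressed, at 7.51 ± 0.11 (SD, n = 5) in the control. In the 1960 µg/L libraries it read 9.10, 9.03, 9.46, 9.18 and 9.27 (A to E), 3.22-fold above the low reference and above all libraries of the lower concentrations, whose highest was 7.77. Its 4900 µg/L libraries read 8.85, 7.85, 7.49, 7.02 and 6.92 (A to E). Only A came near the 1960 µg/L libraries, and D and E lay with those at 12249 µg/L, which read 6.90, 6.85 and 7.07. The 4900 µg/L mean differed from the low reference by 0.10 ± 0.16 (SE; limma adjusted p = 0.642), and by -0.20 without replicate A. At 30623 µg/L it read 7.18, 7.32 and 8.37 (A, C and D), a difference of 0.10 ± 0.19 (SE) (limma adjusted p = 0.674), which was -0.27 without replicate D and 0.32 without replicate A. The member with the next identifier number formed with it the 1 pair of consecutive numbers among the 46. Positions in the genome were not analysed here.

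The 2 genes named for the lowest values at 30623 µg/L fell there and stood moderately high at 1960 µg/L. They are the lowest of the 7 genes that were called lower at 30623 µg/L with all 3 libraries below all 10 low libraries. Rsub_10629 read 6.45, 6.03, 6.55, 6.03 and 6.53 at 1960 µg/L (A to E), against 5.57 ± 0.29 (SD, n = 5) in the control. Its 4900 µg/L libraries read 5.37, 5.45, 4.66, 4.82 and 3.73 (A to E). A and B stood at the control level, and C, D and E lay below every library of the control and the lower concentrations. It fell there by 0.65 ± 0.17 (SE) against the low reference (limma adjusted p = 0.00137), and without 4900 µg/L replicate E the difference was -0.38 (limma adjusted p = 0.0507). The SD of its 4900 µg/L libraries was 0.69, against 0.29 in the control. At 30623 µg/L it read 3.58, 3.67 and 3.57 (A, C and D), a difference of -1.85 ± 0.20 (SE), or 0.278 of the low reference (limma adjusted p = 1.77e-11). The 3 libraries agreed closely and lay below the 12249 µg/L libraries, which read 3.92, 4.07 and 4.09. From 4900 to 30623 µg/L it fell, by -1.197 ± 0.22 (SE) on the log2 scale (limma adjusted p = 2.18e-05).

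Rsub_05724 was high in the control, at 8.33 ± 0.17 (SD, n = 5), and read 9.05, 8.99, 9.04, 9.22 and 9.11 at 1960 µg/L (A to E). The 4900 µg/L libraries gave 10.0, 9.70, 9.14, 8.26 and 8.05 (A to E). Libraries A and B were above all 1960 µg/L libraries, and D and E were at or below the control level. It rose there by 0.64 ± 0.15 (SE) (limma adjusted p = 0.000539), and by 0.39 without 4900 µg/L replicate A. The SD of its 4900 µg/L libraries was 0.87, against 0.17 in the control, so this SE understates their spread. At 30623 µg/L it read 7.003, 6.85 and 6.93 (A, C and D), below every library of all other groups. The nearest were those at 12249 µg/L, which read 7.57, 7.501 and 7.006, the last of them only just above. It fell, with a difference from the low reference of -1.47 ± 0.19 (SE) (limma adjusted p = 1.10e-09). From 4900 to 30623 µg/L it fell by 2.11 ± 0.21 (SE) (limma adjusted p = 4.65e-12).

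**Figure D5:**
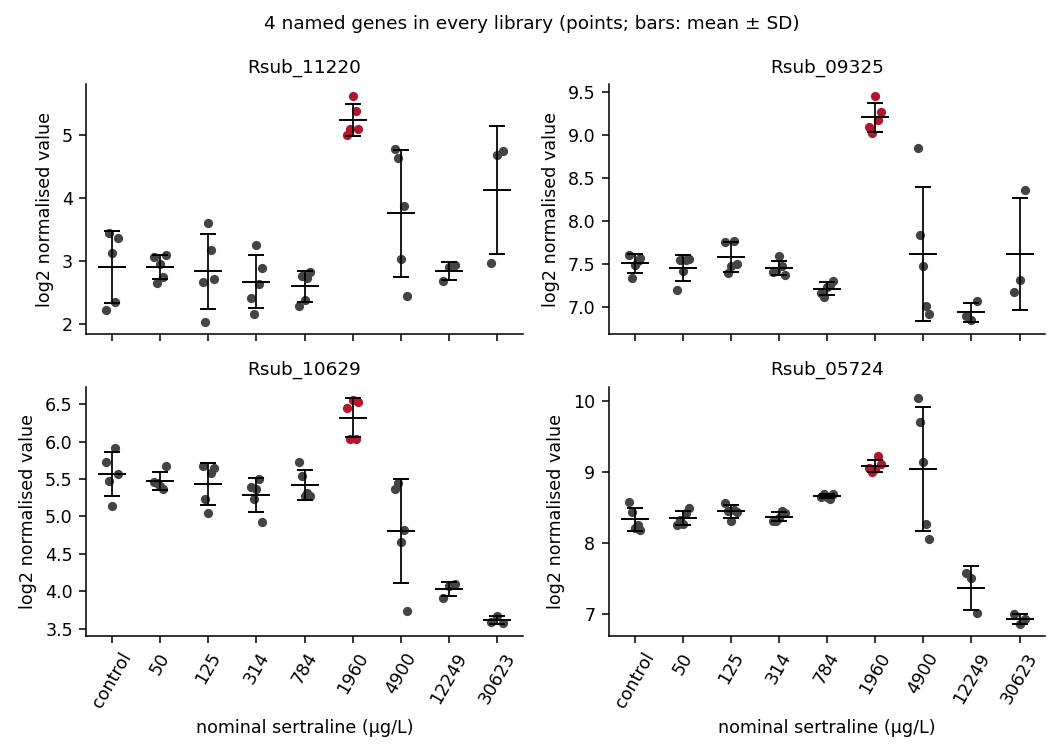
Deposited log2 normalised values of the 4 named genes in every library (points, red at 1960 µg/L) with mean and SD (bars) at each nominal concentration. At 4900 µg/L all 4 genes spread widely, and at 30623 µg/L Rsub_10629 and Rsub_05724 lie below their low-concentration libraries.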

How the data were processed

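The deposited values, normalized by the authors and taken here to be log2, cover 7291 genes in 41 of 45 labelled libraries. The other 4 were not analysed here. Per the labels' protocols, sequencing was of 3′ ends with molecular identifiers. The submitters' processing notes name DESeq2, featureCounts 2.0.6, SAMtools 1.15.1, STAR 2.7.10a, fastp 0.23.2 and bcl2fastq 2.20.0. The sources used here do not give the genome build, transform, log base or gene filter. Were the base not 2, every fold would change. Read depth is unknown, so no counting interval could be given. The values ran from 1.19 to 12.6, with library medians from 4.55 to 4.73 and no 2 libraries alike (highest correlation 0.975).

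All 41 libraries entered 1 limma 3.58.1 fit (R 4.3.3) with a mean per group, eBayes with an intensity trend, no filter and no pseudocount (32 residual and 24.4 prior degrees of freedom). Tests were two-sided, adjusted over 7291 genes, at an adjusted p of 0.05, and those at 4900 and 30623 µg/L were tested on simulated data. Named genes are the 2 with the largest 1960 µg/L difference from control and the 2 lowest at 30623 µg/L among those called lower without overlap. Figures used Python 3.11.15 and matplotlib 3.10.9. Members and tests were chosen with earlier results of these data known. Lists of genes by product name were planned but could not be formed without product names. Alternatives varied the spread, block, scaling, filter, trend, weights, reference, thresholds and each library.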

Additional observations from a re-analysis of the deposited data

Results flagged for a closer look

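In the groups of 5 libraries, the median of the 46 genes and the values of the 4 named genes gave 35 sets of values, and 0 of them had a library set apart from the rest of its group, where chance gives about 1.75.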

How the results depend on the processing

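With genes of mean log2 under 4 left out, 25 of the 46 genes remained by construction: 5 rose at 4900 µg/L, 2 rose at 30623 µg/L, 3 were higher at 30623 than at 4900 µg/L (median difference -0.43), and 15 were called by the F test. A log2 difference of at least 1 left 2 higher and 0 lower at 4900 µg/L, 5 and 4 at 30623 µg/L, 3 and 6 between these, and 0 lower at 314 µg/L. With library weights, falls numbered 7 at 30623 µg/L, 7 from 4900 to 30623 µg/L, and 3 at 314 µg/L. The single fall at 314 µg/L was 0 with the 5 unused groups alone, without the trend, and against 125 µg/L alone. The cause of the changes with weights, trend and reference was not tested. Other thresholds gave 127 genes (1960 µg/L difference of 0.5), 10 (1.0), 20 (784 µg/L within 0.2) and 29 (12249 µg/L at most -0.3), and 25 with the filter on the mean. With group medians there were 69 genes, 31 of them among the 46.

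Leaving out single libraries gave 6 to 12 rises and 2 to 7 falls at 4900 µg/L, 5 to 10 and 9 to 14 at 30623 µg/L, 4 to 9 and 9 to 16 between these, and 0 to 1 falls at 314 µg/L. Rsub_11220 at 30623 against 4900 µg/L became significant without 30623 µg/L replicate A (0.96, limma adjusted p = 0.0384). The letters shared by groups were not taken as pairs in the main fit. The same-letter correlation of deviations had a median of 0.003 over 42 pairs of the groups tested, and 3 exceeded 0.1. Over the other 107 same-letter pairs the median was 0.018 and 16 exceeded 0.1. For the matching 427 pairs of unlike letters these were -0.005 and 32. Such medians over all genes cannot show that the letters mark no shared batch. With the letters as a replicate block, 4900 µg/L had 10 rises and 4 falls, 30623 µg/L had 8 and 13, the step between them had 5 and 15, and the F test called 23. Centring and quantile scaling moved the median of all genes by under 0.1 in every group. The median of the 46 genes at 30623 µg/L, -0.10 as deposited, was -0.06 with centring, -0.18 with quantile scaling, -0.28 with the filter on the mean and -0.02 with library weights. At 4900 µg/L, where it was 0.11, it was 0.05 with library weights and 0.0004 with that filter.

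Among all genes, the counts at 314 µg/L ran from 0 to 102 falls, and with the minimum difference 340 rose at 4900 µg/L and 381 fell, while 966 rose at 30623 µg/L and 914 fell.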
